A study of Homo sapiens with 6 samples.

Results

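Kinesins are motor proteins that walk along or take apart microtubules, and human cells carry a superfamily of them. Of the 13008 genes in the authors' deposited comparison table, 32 protein-coding genes had a symbol of KIF or KIFC followed by a number, and these are described here. By known function 12 were placed among the mitotic kinesins, 13 among the transport kinesins and 7 in neither class (ciliary, centriolar or microtubule-regulating motors). KIFAP3, an accessory subunit without a motor, was not among them.

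The libraries were of polyadenylated RNA from a human hTERT-RPE1 line, telomerase-immortalised retinal pigment epithelial cells, that carries FLAG-tagged FOXM1c under a Tet-inducible promoter. In the dox group (3 libraries, genotype label FOXM1 overexpression) cells had received 1 µg/mL doxycycline every 24 h over 48 h. In the no dox group (3 libraries, genotype label WT, treatment label none) cells of the same line name had received none, although the protocol text on every sample names the drug. No doxycycline-treated cells lacking the transgene were analysed here, so effects of the drug and of induced FOXM1 cannot be told apart. The labels name 1 line and do not speak of independent cultures. The p-values therefore rest on the differences among these libraries alone, and those may be technical.

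In mitosis kinesins push spindle poles apart, move and orient chromosomes, shorten microtubule ends and build the central spindle at which the cell divides. In interphase other family members carry vesicles, mitochondria, mRNA and ciliary cargo along microtubules, usually towards their plus ends. Many mitotic kinesin genes are transcribed mainly in G2 and M phase, and FOXM1, a forkhead transcription factor that works with the MuvB complex, is one of the known activators of such genes.

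The libraries held 41719959, 49882123 and 25148936 reads in dox replicates 1, 2 and 3, against 31307141, 32280300 and 15094498 in no dox. At each replicate number the dox library was thus the deeper. FOXM1 had 65289, 66830 and 74976 normalised counts (the authors' depth-equalised counts) in dox replicates 1, 2 and 3, against 5009, 4383 and 4292 in no dox, a 15.1-fold difference (limma adjusted p = 4.49e-06). As to the epithelial label, KRT8 and KRT18 lay between 20 and 65.2 FPKM in every library, but EPCAM was listed at 0 in all 6 and CDH1 reached at most 0.0106 FPKM. Of the pigment epithelium markers MITF and OTX2 were present (1.91 to 3.14 FPKM) and RPE65 was at most 0.220 FPKM. The others listed, BEST1, RLBP1, TYR and PMEL, were at most 0.0656 FPKM. Of the mesenchymal markers VIM lay at 254 to 396 FPKM, FN1 at 71.4 to 89.3, THY1 at 22.2 to 34.9 and COL1A1 at 5.64 to 12.7. S100A4 lay at 0.948 to 1.18 FPKM and COL1A2 at no more than 0.0254. Of the neuron markers SYT1 lay at 2.19 to 2.69 FPKM and SNAP25 at 0.416 to 0.564, while SYP, RBFOX3 and STMN2 were at most 0.0454. The immune genes PTPRC and CD14 and the endothelial CDH5 were at most 0.0478 FPKM.

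Per gene length the family ranged from 0.0538 FPKM for KIF6 to 57.1 FPKM for KIF5B on average over the 6 libraries. On the FPKM scale KIF5B, the heavy chain of conventional kinesin, stood first with 56.7 ± 3.68 in dox, against 57.5 ± 2.55 in no dox (SD, n = 3 libraries per group here and below). KIF1C, a motor of integrin and neuropeptide vesicles, averaged 32.8 ± 5.40 FPKM in dox and 34.8 ± 7.84 in no dox. KIF11 (Eg5), which slides spindle microtubules apart, averaged 27.8 ± 5.27 FPKM in dox and 33.7 ± 3.03 in no dox, and the ranges of KIF1C and KIF11 overlapped. KIF3B, KIF20A and KIFC1 completed the 6 genes above 10 FPKM on average, and 9 members lay below 1 FPKM. These ranks depend on the deposited gene widths, such as 4858 bases for KIF11 and 28503 for KIF23. In no dox KIF23 averaged 3056 normalised counts and 3.66 FPKM, against 4798 normalised counts and 33.7 FPKM for KIF11. The lowest were KIF6, linked to motile cilia, and KIF17, a dendritic and ciliary motor that had as few as 20 reads in a library. Of the 42 kinesin genes listed by class, 10 were not in the comparison table, among them the neuronal KIF1A and KIF5A, and none of these exceeded 0.0703 FPKM in any library.

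**Figure D1:**
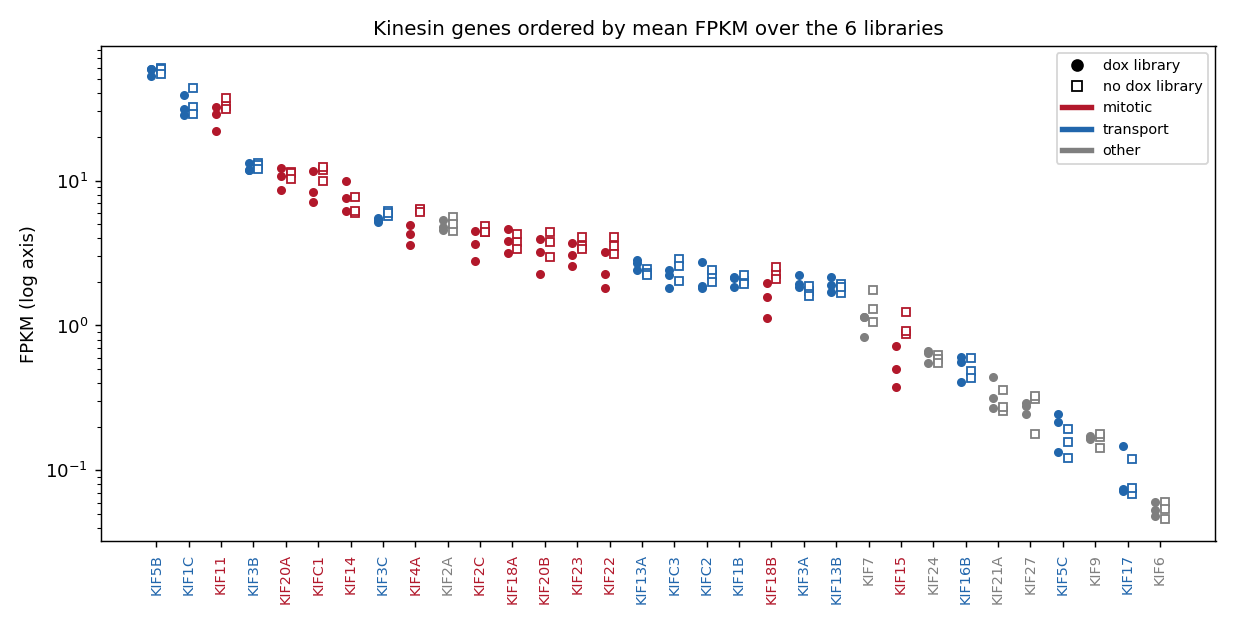
FPKM (log axis) of the 32 kinesin genes in each library, ordered by the mean over the 6 libraries; filled circles are dox libraries, open squares no dox libraries, and colour gives the class. KIF5B is highest and KIF6 lowest, and KIF15 is the lowest of the mitotic kinesins.

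The promoters of the mitotic genes shared a sequence feature that the grouping did not use. The cell cycle genes homology region (CHR), a TTTGAA element near the start of many G2 and M phase genes, is the element that the DREAM and MuvB complexes, FOXM1 with them, are known to contact. TTTGAA, searched on both strands, lay in 9 of 12 mitotic promoters (250 bases before to 50 after the start, RefSeq, GRCh38.p14), in 1 of 10 transport promoters and in 0 of 6 others, against 12.1% of 15843 protein-coding promoters of the same length. Promoters of 28 of the 32 genes were matched by symbol, and those of KIF13B, KIFC2, KIFC3 and KIF27 were not. The 9 mitotic promoters with the element are shown from 5′ to 3′ on the strand that reads TTTGAA, with its GRCh38.p14 position, chromosome strand and the element in capitals, so that its surroundings can be compared, followed by the 1 transport promoter.
KIF15 (chr3:44761747-44761776, minus): gatggccgcaaaTTTGAAtttggcgcttgg
KIF18B (chr17:44947754-44947783, minus): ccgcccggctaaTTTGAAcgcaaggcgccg
KIF4A (chrX:70290058-70290087, plus): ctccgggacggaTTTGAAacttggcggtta
KIFC1 (chr6:33391815-33391844, minus): acacccgccactTTTGAAttccaacggcca
KIF11 (chr10:92593090-92593119, minus): tcggcgcctcaaTTTGAAaaagagacagag
KIF20B (chr10:89701605-89701634, plus): ccgccattgTTTGAATTTGAAaacggtaac
KIF23 (chr15:69414282-69414311, plus): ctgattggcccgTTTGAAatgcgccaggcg
KIF18A (chr11:28108149-28108178, minus): aagtggcttgggTTTGAAtattgtggttga
KIF14 (chr1:200620733-200620762, plus): agaaggccgcaaTTTGAAtgggcgccccgc
KIF5B (chr10:32056548-32056577, minus): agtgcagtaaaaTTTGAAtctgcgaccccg

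The mitotic elements lay close to the start, from position -55 in KIF23 to position 31 in KIF20B (bases from the start). The KIF20B promoter held the element in tandem. The KIF5B element lay farther upstream, at position -140. A CCAAT box, the letters bound by NF-Y, was found on either strand in 10 of 12 mitotic, 3 of 10 transport and 2 of 6 other promoters, against 36.4% of all. Both elements together stood in 8 mitotic promoters and in 1 transport promoter, KIF5B again, against 5.02% of all. The forkhead letters TAAACA stood in 0 of 12 mitotic promoters and in 1 of 10 transport promoters (KIF3B), against 8.95% of all. The E2F letters TTTNNCGC stood in 2 mitotic promoters (KIF15 and KIF20B) and in 0 transport promoters, against 8.86% of all. No matches of different motifs overlapped in these promoters. The median GC content was 62.1% for the mitotic, 71.8% for the transport and 62.7% for all promoters, and its part in the shares was not tested.

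The spacing of the elements is seen in the 150 bases before and 20 after the start of a gene that fell in dox (KIF4A, chrX:70289954-70290123, plus strand) and of one that rose in the paired fit given below (KIF14, chr1:200620732-200620901, minus strand), with CCAAT and TTTGAA in capitals on either strand (ATTGG and TTCAAA on the opposite one).
KIF4A: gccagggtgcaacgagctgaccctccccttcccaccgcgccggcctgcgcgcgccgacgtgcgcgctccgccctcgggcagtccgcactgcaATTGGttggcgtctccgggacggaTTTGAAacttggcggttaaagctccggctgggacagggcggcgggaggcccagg
KIF14: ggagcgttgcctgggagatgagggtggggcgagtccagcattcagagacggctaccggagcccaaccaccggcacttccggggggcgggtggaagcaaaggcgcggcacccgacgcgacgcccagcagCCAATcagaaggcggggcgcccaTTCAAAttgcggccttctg
Both windows held 1 CCAAT box upstream of 1 TTTGAA. Of the mitotic genes that held TTTGAA in the searched promoter, KIF4A, KIF11, KIF15, KIF18B, KIF20B, KIF23 and KIFC1 were lower in dox in that fit. KIF14 was higher and KIF18A did not pass. Of those without TTTGAA, KIF22 and KIF2C were lower and KIF20A did not pass. Only these exact letters were searched, so a CHR of another form in these promoters would have been missed. A link between the element and the change was not tested.

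**Figure D2:**
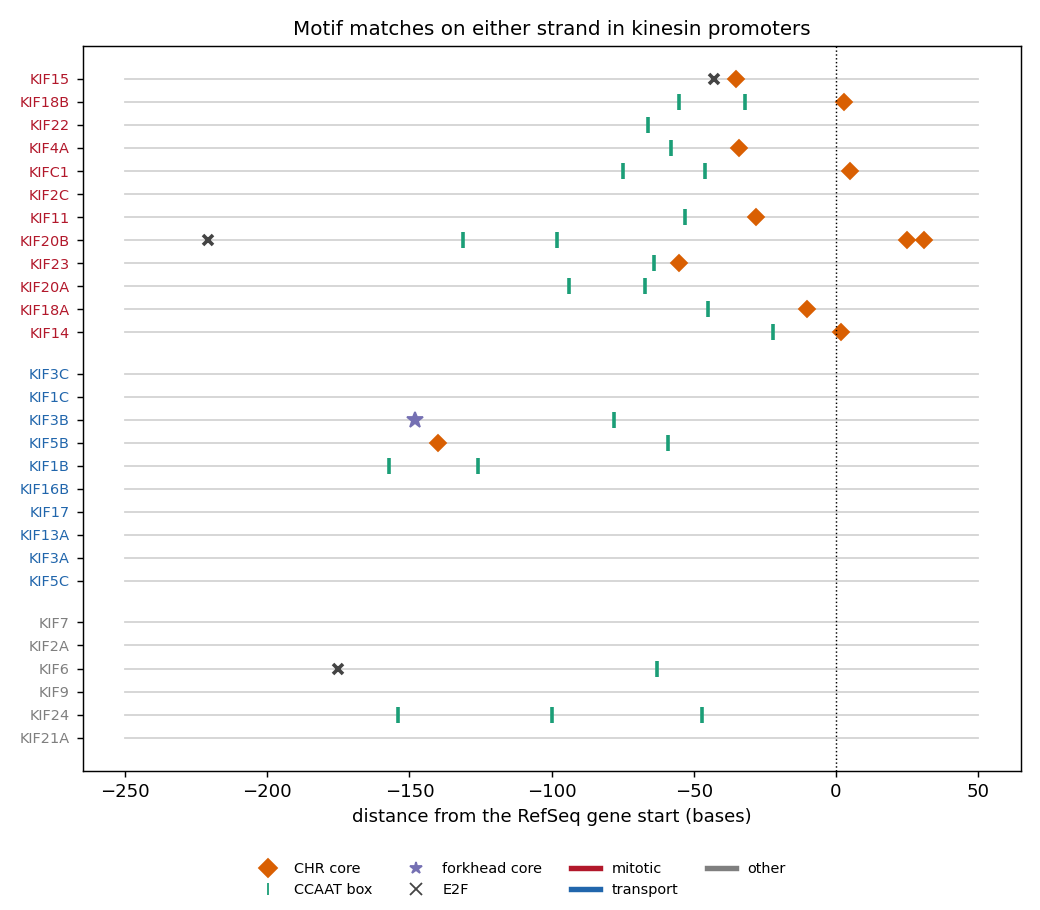
Positions of 4 motifs on either strand in the 28 matched promoters, as distance in bases from the RefSeq gene start (dotted line); rows are genes, grouped by class and ordered within it by log2 change, largest fall on top. The CHR core (orange diamonds) sits near the start in 9 of the 12 mitotic rows and at -140 in the row of KIF5B.

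Most mitotic kinesins were lower in dox, while the transport kinesins moved little and in both directions. Without a block no kinesin passed limma over all 13153 tested genes, where 0.22% of genes were called lower and 0.319% higher (0.54% in either direction). With no adjustment 8 kinesins had a limma p under 0.05 and were lower, 7 of them mitotic, and 0 were higher, against 7.06% of all genes lower and 5.94% higher. Libraries that carry the same replicate number shared deviations from their group means. With the number fitted as a block, 9 of 12 mitotic kinesins fell and 1 rose, 2 of 13 transport kinesins fell and 2 rose, and 1 of 7 others fell. With the block 12.4% of all tested genes were called lower and 10.2% higher (22.5% in either direction). "Fell" and "rose" below are calls of that paired fit (limma, adjusted p under 0.05 over all tested genes), on 2 residual degrees of freedom. The paired fit was planned as an alternative and the fit without a block as the main one. No label says that libraries of equal number share anything. In bulk RNA fewer cells in a cell cycle phase and less RNA per cell cannot be told apart.

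Among the motors that hold the spindle bipolar, KIF15 had the largest fall of the family. KIF15, a kinesin-12 that can stand in for KIF11 on spindle fibres (hg19 chromosome 3, 44803209 to 44914868, plus strand), had 216, 399.4 and 294.2 normalised counts in dox replicates 1, 2 and 3, against 519.2, 696.4 and 544.1 in no dox. Every dox library lay below every no dox library, at a mean of 303.2 ± 92.0 against 586.6 ± 95.9. The log2 change was -0.98 (SE 0.22, limma adjusted p = 0.105; SE 0.09 and adjusted p = 0.000187 with the replicate block). KIF11 itself had 3129, 4370.3 and 4118 normalised counts in dox, against 4698, 5120.4 and 4576 in no dox. Its groups did not overlap either, and the change was -0.32 (limma adjusted p = 0.344, and 0.0116 with the block). KIFC1, a minus-end-directed kinesin-14 that draws spindle poles together, had 980.6, 1526 and 1172 normalised counts in dox, against 1659, 1676 and 1429.8 in no dox. Dox replicate 2 lay above no dox replicate 3, so the groups overlapped, and the change was -0.39 (limma adjusted p = 0.345, and 0.0177 with the block).

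KIF15 was lower in dox also relative to KIF11. The FPKM of KIF15 was 0.0171, 0.0224 and 0.0173 of that of KIF11 in dox replicates 1, 2 and 3, against 0.0270, 0.0331 and 0.0290 in no dox. The log2 difference was -0.66. This is 1 of 3 ratios chosen after the values were seen, given as descriptions with no test. The level of each ratio depends on the deposited gene widths, while its difference between groups does not.

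Both chromokinesins, which bind chromosome arms and push them towards the spindle equator, fell. KIF4A (hg19 chromosome X, 69509879 to 69640682, plus strand) had 892.9, 1164 and 1085 normalised counts in dox, against 1573, 1554 and 1552 in no dox. The no dox libraries were nearly equal and all 3 dox libraries lay below them. The change was -0.58 (SE 0.11), with the smallest unblocked limma adjusted p of the family at 0.0645, and 0.000602 with the block. KIF22 (Kid) had 889.7, 1495 and 1114 normalised counts in dox, against 1747, 1929 and 1576 in no dox, without overlap. Its change was -0.61 (SE 0.18, limma adjusted p = 0.187, and 0.00197 with the block). Reads of KIF4A and of its near-identical intronless copy KIF4B may be shared, and KIF4B was listed at no more than 0.0577 FPKM.

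The motors that act on microtubule ends did not all move alike. KIF18B, a kinesin-8 that restrains astral microtubules, had 513, 858.5 and 730.3 normalised counts in dox, against 1059, 1127 and 985.1 in no dox. The groups did not overlap, and KIF18B fell by 0.62 on the log2 scale (SE 0.18, limma adjusted p = 0.181, and 0.00379 with the block). KIF2C (MCAK), the kinesin-13 that depolymerises microtubules at centromeres, had 1241, 1899.7 and 1649.5 normalised counts in dox, against 2024, 2123 and 2033 in no dox. It too lay lower in every dox library, with a change of -0.39 (limma adjusted p = 0.312, and 0.0110 with the block). KIF18A, the kinesin-8 that damps chromosome oscillations at the metaphase plate, had 623.7, 864.8 and 756.6 normalised counts in dox, against 749, 817 and 682.8 in no dox. These groups overlapped, with a change of -0.01 (SE 0.13, limma adjusted p = 0.986, and 0.937 with the block).

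The kinesin-8 paralogues are set side by side because 1 fell and the other did not pass, so their ratio is a description. KIF18B stood at 0.353, 0.426 and 0.413 of the FPKM of KIF18A in dox, against 0.604, 0.590 and 0.620 in no dox. The log2 difference of this ratio was -0.61.

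The 4 kinesins of the central spindle and cytokinesis had a median change of -0.18, nearest to 0 of the mitotic role groups, although single genes of other groups, such as KIF18A, lay nearer. KIF23 (MKLP1), the motor of centralspindlin, had 2136, 2946 and 2563 normalised counts in dox, against 2998, 3278 and 2891 in no dox. KIF20B (MPP1), needed for the completion of abscission, had 1987, 3293 and 2856 in dox, against 2631, 3763 and 3411 in no dox. In each gene the groups overlapped while all 3 pairs were lower, and both fell with the block, KIF23 by 0.27 (limma adjusted p = 0.0146) and KIF20B by 0.28 (limma adjusted p = 0.00373). KIF20A (MKLP2), which carries the chromosomal passenger complex to the central spindle, had 2433, 3275 and 3033 normalised counts in dox, against 3248, 3061 and 2977 in no dox. It was lower in pair 1 (-0.42) and slightly higher in pairs 2 and 3 (0.10 and 0.03), and failed the test (limma adjusted p = 0.819, and 0.447 with the block). KIF14, which recruits citron kinase to the midbody, had 1309, 2020 and 1626 normalised counts in dox, against 1293, 1601 and 1356 in no dox. It was higher in all 3 pairs (0.02, 0.33 and 0.26) and the 1 mitotic kinesin that rose, by 0.20 on average (SE 0.16, limma adjusted p = 0.682; SE 0.06 and adjusted p = 0.0441 with the block). That call was lost when pair 2 or pair 3 was left out (0.14 and 0.18).

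**Figure D3:**
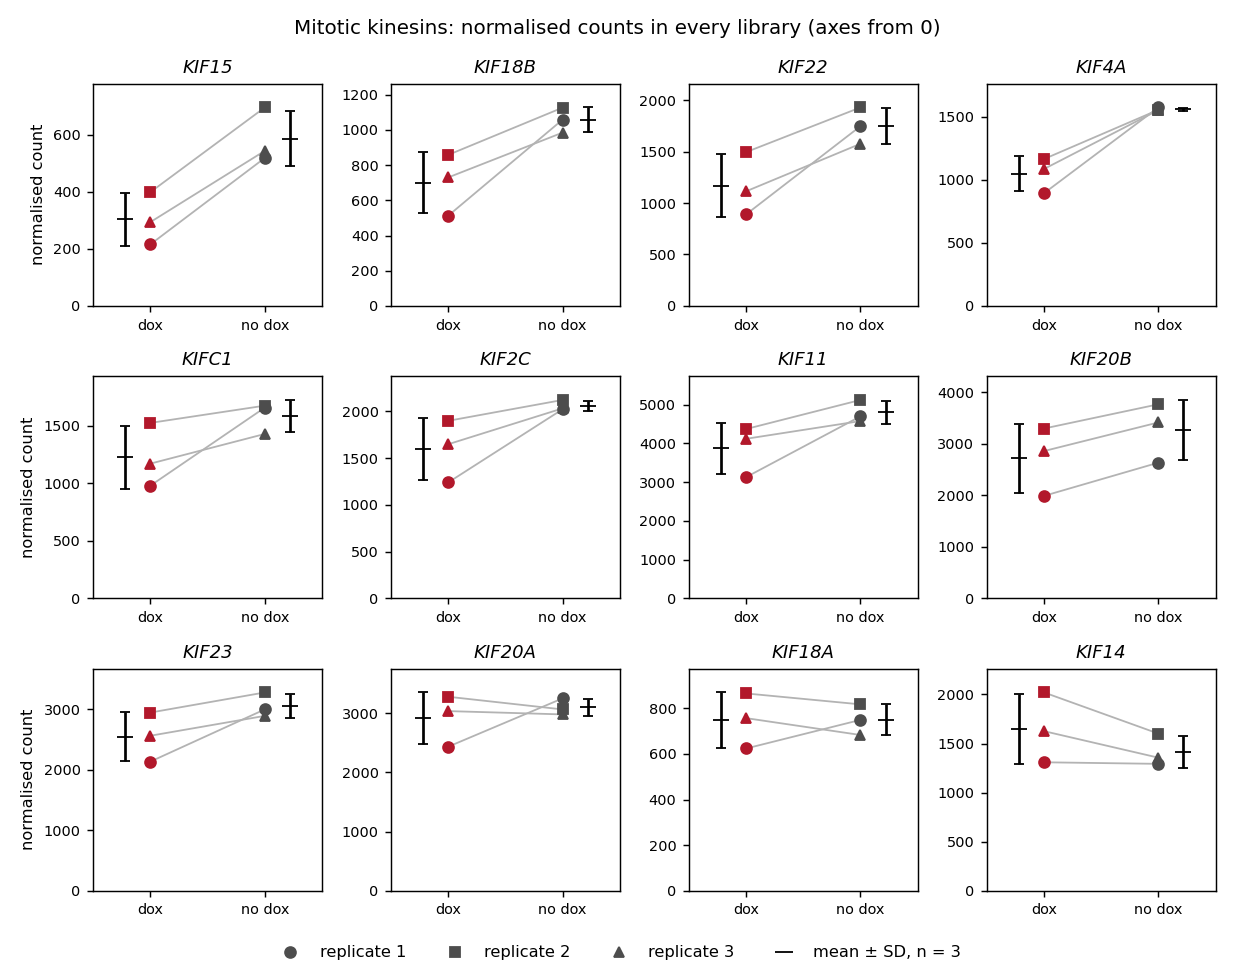
Normalised counts of the 12 mitotic kinesins in every library, dox left and no dox right, with grey lines joining libraries of equal replicate number and bars giving mean ± SD (n = 3); each axis starts at 0. On this scale KIF15, KIF18B, KIF22, KIF4A, KIF2C and KIF11 do not overlap between groups, while in FPKM KIF22, KIF2C and KIF11 do. Dox replicate 1 (circles) is the lowest dox library in every panel.

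Pair 1 had the lowest changes of the mitotic class. The pair 1 change was the lowest of the 3 in 12 of 12 mitotic kinesins, in 6 of 13 transport kinesins and in 37.5% of all tested genes. The mean change over the mitotic class was -0.64 in pair 1, -0.19 in pair 2 and -0.26 in pair 3. When the libraries of 1 number were left out, the same 9 mitotic kinesins passed with the block each time, but several changes shrank. Of 13153 tested genes 2074, 830 and 1007 were called lower in these fits, without pairs 1, 2 and 3 in turn. Called higher were 1761, 584 and 772. These fits have fewer residual degrees of freedom than the fit of all 3 pairs. With the block and pair 1 left out KIF11 was at -0.19, KIF2C at -0.23, KIFC1 at -0.21, KIF23 at -0.16 and KIF18B at -0.41. Without a block and without dox replicate 1 alone, KIF11 was at -0.18, KIF2C at -0.22, KIFC1 at -0.24, KIF23 at -0.15, KIF18B at -0.41, KIF20B at -0.08 and KIF14 at 0.36. KIF20B was at -0.44 without dox replicate 2, at -0.43 without no dox replicate 1 and at -0.17 without no dox replicate 2, and KIF14 was at 0.05 without dox replicate 2. From FPKM values with the block 5 of the 9 passed, KIF15, KIF18B, KIF22, KIF4A and KIF20B. In that fit 927 of 13153 tested genes were called lower and 1154 higher. An adjusted p under 0.05 stood beside 4 kinesins in the authors' deposited table, all lower. At the same cut-off 1.52% of that table's genes were lower and 1.25% higher. They were KIF4A (log2 change -0.57, adjusted p = 0.00165), KIF15 (-0.94, 0.00256), KIF22 (-0.58, 0.0285) and KIF18B (-0.58, 0.0336), per the authors' deposited table. The authors' own mark, in a column headed dn, stood beside KIF4A and KIF15 but not beside KIF22 or KIF18B.

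**Figure D4:**
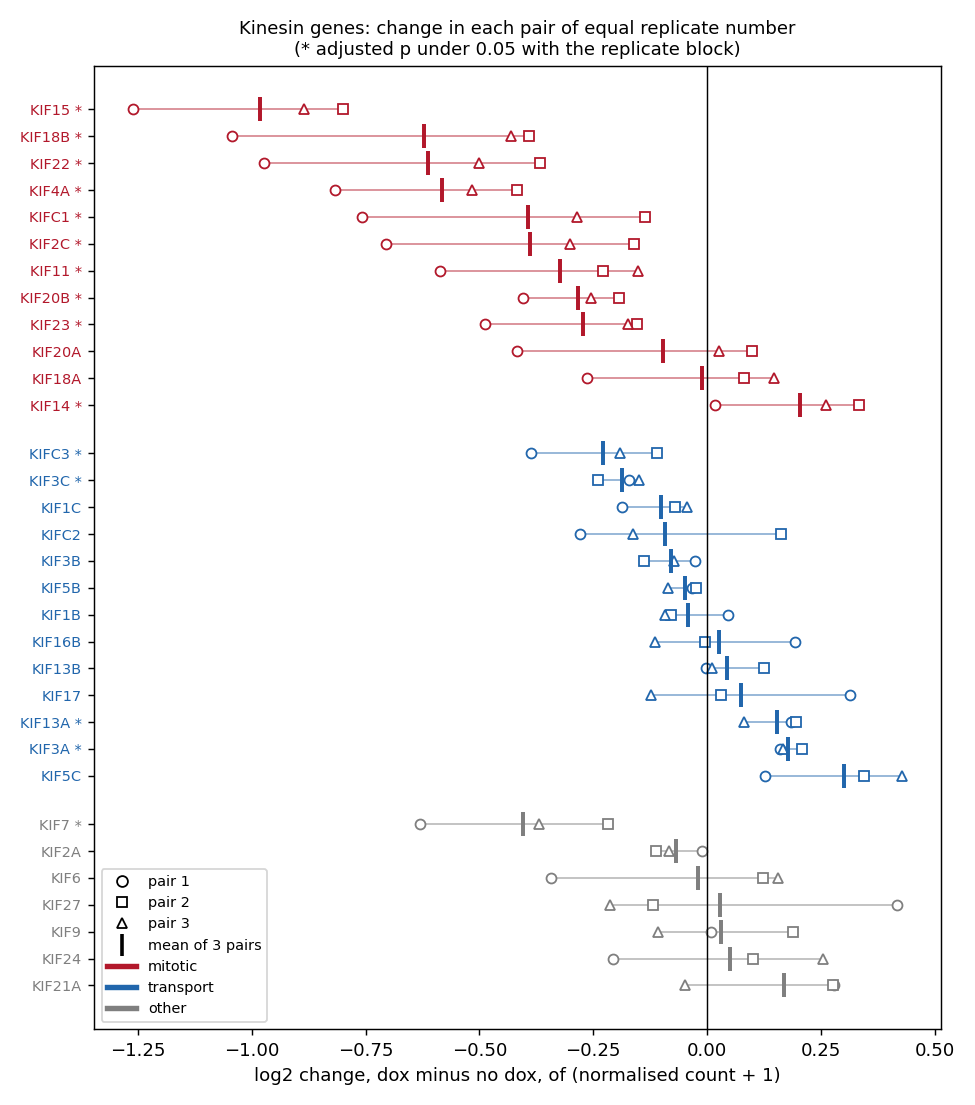
Log2 change (dox minus no dox) of each kinesin in the 3 pairs of equal replicate number (open symbols) and their mean (vertical bar), by class; an asterisk marks an adjusted p under 0.05 with the replicate block. Mitotic kinesins run from -0.98 for KIF15 to 0.20 for KIF14, transport kinesins from -0.23 to 0.30.

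Among the transport kinesins the most abundant changed little. KIF5B had 10948, 10405 and 9843 normalised counts in dox, against 11211, 10579.6 and 10448 in no dox, overlapping groups with a change of -0.05 (SE 0.08, limma adjusted p = 0.882). KIF1C had 11381, 8723 and 8366 in dox, against 12953, 9160.2 and 8619 in no dox. Replicate 1 was the highest library of both groups, and the change was -0.10 (SE 0.18, limma adjusted p = 0.892). KIF5C, the paralogue of KIF5B known from neurons, had only 115.5 to 206.2 normalised counts in dox and 105.7 to 162.2 in no dox, with a change of 0.30 (limma adjusted p = 0.715, and 0.0809 with the block).

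In the kinesin-2 group, heterotrimeric motors of cilia and vesicles, KIF3A pairs with KIF3B or KIF3C. KIF3A had 815.6, 885.9 and 776.1 normalised counts in dox, against 729.2, 766.9 and 691.2 in no dox. Every dox library was higher, and KIF3A rose by 0.18 on the log2 scale (SE 0.09, limma adjusted p = 0.455, and 0.0451 with the block). KIF3C had 3216, 3168 and 3451 normalised counts in dox, against 3624, 3741 and 3830.4 in no dox. Every dox library was lower, with a change of -0.19 (SE 0.07, limma adjusted p = 0.320, and 0.0115 with the block). KIF3B had 3043, 2600.3 and 2723 in dox, against 3099, 2864 and 2865 in no dox. It overlapped, at -0.08 (limma adjusted p = 0.788, and 0.228 with the block). KIF3A thus stood at 0.377, 0.415 and 0.335 of the FPKM of KIF3C in dox, against 0.299, 0.305 and 0.268 in no dox, a log2 difference of 0.37. This pair too was chosen for its opposite calls. KIF17, the homodimeric member, lay at 34.6 to 78.1 normalised counts in dox and 33.9 to 62.6 in no dox.

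Of the 5 kinesin-3 motors, carriers of vesicles and endosomes, KIF13A rose. It had 3518, 3217 and 3015 normalised counts in dox, against 3097, 2809 and 2849 in no dox, a change of 0.15 (SE 0.08, limma adjusted p = 0.516, and 0.0325 with the block). KIF1B (-0.04), KIF13B (0.04) and KIF16B (0.03) had limma adjusted p-values of 0.901 to 0.973. Of the carboxy-terminal motors KIFC3, linked to adherens junctions and apical transport, had 3030, 3112 and 2459 normalised counts in dox, against 3960.3, 3361 and 2806 in no dox. The groups overlapped but each pair was lower, and KIFC3 fell by 0.23 (limma adjusted p = 0.587, and 0.0158 with the block). KIFC2 lay at -0.09 (limma adjusted p = 0.874). Of the 4 transport calls with the block, that of KIFC3 was kept whichever pair was left out; KIF3C lost it without pair 2, and KIF3A and KIF13A lost it without pair 2 or pair 3. KIFC3 was at -0.15 with the block and pair 1 left out, and unblocked at -0.12 without dox replicate 3, -0.11 without no dox replicate 1 and -0.36 without no dox replicate 3. KIF13A was at 0.10 without dox replicate 1. From FPKM values with the block none of the 4 passed, and their changes kept their sign.

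Of the 7 kinesins in neither class KIF7, the ciliary regulator of hedgehog signalling, fell. It had 215.7, 202.5 and 159.2 normalised counts in dox, against 334.3, 235.5 and 205.9 in no dox. Dox replicate 1 lay above no dox replicate 3, and the change was -0.41 (SE 0.20, limma adjusted p = 0.465, and 0.0201 with the block). The call was kept only when pair 2 was left out, and the unblocked change was -0.21 without no dox replicate 1. KIF7 shares 22268 bases of its hg19 locus with TICRR, a replication gene on the opposite strand whose change was nearly equal (-0.41, limma adjusted p = 0.454, and 0.0142 with the block). No label or header says whether reads were counted by strand, so reads of this overlapping pair may be mixed. In all 9 members overlapped another gene of the comparison table. On the same strand KIF15 shared 3802 bases with TMEM42 (0.14) and KIF2A 133278 with IPO11 (0.15). KIF23 shared 784 with RP11-253M7.1 on the opposite strand (0.82, limma adjusted p = 0.464, and 0.00548 with the block). KIF2A, a depolymerase of spindle poles and neurites related to KIF2C, had 1867, 2073 and 1993 normalised counts in dox, against 1882, 2241 and 2112 in no dox, a change of -0.07 (limma adjusted p = 0.837). By its place at spindle poles KIF2A could also have been counted as mitotic. Its searched promoter held neither TTTGAA nor CCAAT on either strand. The remaining 5, KIF6, KIF9, KIF21A, KIF24 and KIF27, had changes from -0.02 to 0.17 and limma adjusted p-values of 0.795 to 0.982.

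Set side by side, the mitotic class had a median log2 change of -0.36 and the transport class one of -0.04, against 0.00 over all tested genes. Of 12 mitotic kinesins 11 lay below 0, 9 were lower in all 3 pairs and 6 had normalised counts that did not overlap, with dox below. Of 13 transport kinesins 7 lay below 0, 5 were lower and 3 higher in all 3 pairs. On normalised counts 1 lay without overlap on either side (KIF3C below, KIF3A above). In FPKM the groups of KIF22, KIF2C, KIF11 and KIF3A overlapped, and those of KIF15, KIF18B, KIF4A and KIF3C did not. Over all tested genes 28.5% were lower and 26.5% higher in all 3 pairs, and 10% lay without overlap below and 9.03% above. The mean change of the mitotic class minus that of the transport class was -0.36, with -0.64 in pair 1, -0.23 in pair 2 and -0.23 in pair 3 (SD 0.24). Without dox replicate 1 it was -0.17. No p is given for this difference, since the members were grouped with results of these libraries known.

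In amount per gene length the mitotic class summed to 61.6, 93.9 and 77.8 FPKM in dox replicates 1, 2 and 3, against 89.5, 100 and 85.0 in no dox. The sum was lower in dox in each pair, by 15.1% on average, but dox replicate 2 lay above no dox replicates 1 and 3. The transport class summed to 130, 123 and 110 FPKM in dox, against 136, 124 and 114 in no dox. It too was lower in dox in each pair, by 2.83% on average, and the groups overlapped. Both sums give more weight to genes of small deposited width.

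Kinesins without a KIF name and partners of the motors were measured beside the family. CENPE, the kinesin-7 that tethers chromosomes to microtubule plus ends, had 1032, 1709 and 1186 normalised counts in dox, against 1656, 2198 and 1628 in no dox. CENPE fell with the block (-0.50, limma adjusted p = 0.335, and 0.000633 with the block), while STARD9, a kinesin of centrosomes, rose by 0.30 (limma adjusted p = 0.736, and 0.0384 with the block). Of 15 partners of mitotic motors (median -0.17), 7 fell and 1, NUSAP1, rose with the block, against 12.4% and 10.2% of all tested genes. Without the block 1 of the 15 passed, BIRC5. RACGAP1, which joins KIF23 in centralspindlin, had 2466, 3186 and 3278 normalised counts in dox, against 3902, 4062 and 3898 in no dox. Its change was -0.42, without overlap (limma adjusted p = 0.156, and 0.00266 with the block). PRC1, the bundler that KIF4A and KIF20A work with at the central spindle, changed by -0.42 as well (limma adjusted p = 0.264, and 0.0125 with the block). The smallest paired p-values belonged to the spindle protein HMMR (-0.75, limma adjusted p = 0.000126 with the block) and to BIRC5 (-0.97, 0.0411, and 0.000282 with the block), the survivin subunit of the passenger complex that KIF20A moves.

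Partners of the transport motors lay near 0. Of 16 light chains, adaptors and cargo linkers (median -0.02), 2 fell and 1 rose with the block, a share near the 22.5% of all tested genes called in either direction. The kinesin light chain KLC1 (-0.06, limma adjusted p = 0.85) and the kinesin-2 subunit KIFAP3 (-0.04, limma adjusted p = 0.915) did not pass. KIFBP, which binds and inhibits several kinesins, fell by 0.19 (limma adjusted p = 0.00976 with the block) and the JNK scaffold MAPK8IP1 by 0.29 (0.0108 with the block). Of 17 subunits of cytoplasmic dynein and dynactin, the opposite-direction motor (median -0.08), 3 fell and 2 rose with the block, which is also close to the share of all tested genes. By rule the 2 of smallest p are named, DCTN3 at -0.35 (limma adjusted p = 0.00284) and the heavy chain DYNC1H1 at 0.23 (limma adjusted p = 0.0140), both with the block.

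Most markers of proliferation were lower in dox, as most mitotic kinesins were. Of 9 G2 and M phase markers (median -0.34), 6 fell and 1 rose with the block, against 12.4% and 10.2% of all tested genes, and none passed limma without it. BUB1 (-0.63, limma adjusted p = 0.111, and 0.000756 with the block) and MKI67 (-0.49, 0.491, and 0.00197 with the block) had the smallest p-values. CCNB2, a mitotic cyclin, rose by 0.42 (limma adjusted p = 0.345, and 0.00412 with the block). CCNB1 (0.04, limma adjusted p = 0.714 with the block) and UBE2C (-0.11, 0.347 with the block) passed neither fit. Their summed FPKM was 126, 193 and 172 in dox, against 178, 201 and 177 in no dox, lowest in dox replicate 1, as was the sum of the mitotic kinesins. Of 8 S phase markers (median -0.44), 5 fell and none rose with the block, none passed without it, and MCM4 (-0.57) and MCM2 (-0.55) had the smallest p-values. Their summed FPKM was 115, 143 and 135 in dox, against 159, 157 and 138 in no dox. Some of the cell type markers were called too. All 3 epithelial markers tested rose with the block, KRT7 by 0.28, KRT8 by 0.29 and KRT18 by 0.32 (limma adjusted p = 0.00706, 0.00111 and 0.000804), and none passed without it. These 3 keratins summed to 95.5, 72.4 and 103 FPKM in dox, against 75.0, 58.0 and 80.8 in no dox. Of 5 mesenchymal markers tested, THY1 fell by 0.27 (limma adjusted p = 0.00311 with the block) and the other 4 did not pass. None of the 4 pigment epithelium and 2 neuron markers tested passed either fit. With the block 22.5% of all tested genes were called in either direction. The part of the cell cycle distribution and of these cell type markers in the kinesin values was not tested.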

How the data were processed

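Sample titles gave each library its group and replicate number. Tools named in the submitters' processing notes are TopHat, Trimmomatic, bcl2fastq and edgeR (no versions), with build hg19. The authors deposited normalised counts, a depth-equalised signal of unstated formula, for 13161 genes. They also deposited FPKM for 57773 genes and a comparison table of 13008 genes with CPM, gene width, log2 fold change, likelihood ratio score, p-value and adjusted p-value, per the file headers. All CPM values were whole multiples (tolerance 0.01) of 1 read, which gave the library totals, but no count test was run, since in 3 libraries too few low values allow that claim to be checked.

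Differences were tested two-sided with limma-trend after log2(normalised count + 1). The 13153 genes that reached 10 normalised counts in 3 or more libraries entered (8 removed), with Benjamini-Hochberg adjustment over all of them. Fold changes are on that scale, which understates low genes. The block adds the replicate number. Same-numbered libraries deviated from their group means with correlations of 0.745, 0.726 and 0.768 across genes, so the numbers were taken to pair the libraries. All 32 members passed the filter. No 2 libraries agreed within sampling noise (chi-square per degree of freedom at least 16.0).

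Members and lists were chosen with earlier results of these data known. Values are given for every mitotic kinesin, for other kinesins called with the block and for abundant transport kinesins, and partner genes are named for the 2 smallest paired p-values of each list, with RACGAP1, PRC1, KIFAP3, KLC1 and CENPE. KIF5C, KIF17, KIF2A, TICRR, NUSAP1, CCNB1, CCNB2, UBE2C, KRT7 and THY1 were added after values were seen. So were TMEM42, IPO11, RP11-253M7.1, VIM, FN1, COL1A1, COL1A2, S100A4 and the neuron markers. Promoters came from a RefSeq table (GRCh38.p14), matched by symbol, and their coordinates are of that build. The fits were run on simulated data with known changes, in which same-numbered libraries shared an effect by design. That run cannot show whether the real libraries are paired. Software was R 4.3.3, limma 3.58.1, Python 3.11.15 and matplotlib 3.10.9.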

Additional observations from a re-analysis of the deposited data

How the results depend on the processing

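Without the block no kinesin passed under any alternative run (pseudocounts of 0.25 and 5, no filter, a minimum of 50, FPKM, 2 scalings of CPM chosen after seeing the data, or any library left out). With the replicate block 9 mitotic kinesins were called lower and 1 higher, 2 transport kinesins lower and 2 higher, and 1 other lower. The counts were 9, 1, 2, 2 and 1 also with median-of-ratios scaling. With FPKM and the block 5 mitotic kinesins were called lower and none otherwise, against 927 lower and 1154 higher of 13153 tested genes. The cause was not tested. With the block and 1 pair left out the mitotic count lower stayed at 9. Mitotic higher ranged from 0 to 1, transport lower from 1 to 2, transport higher from 0 to 3 and other lower from 0 to 1. Over all 13153 tested genes the counts in these fits ranged from 830 to 2074 lower and from 584 to 1761 higher. The blocked alternatives other than the plain block were chosen after seeing the data. The mitotic minus transport mean ranged from -0.48 to -0.17 over left-out libraries, lowest in size without dox replicate 1, and kept its sign in every alternative, as did FOXM1 its call.

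Changes of sign touched uncalled genes only. With FPKM, blocked or not, KIF18A was 0.0171 and KIF6 0.0032. With 1 library left out KIF1B ranged from -0.0857 to 0.0189, KIF9 from -0.0895 to 0.1081, KIF16B from -0.0646 to 0.1835, KIF20A from -0.1872 to 0.0272, KIF17 from -0.2886 to 0.3161, KIF18A from -0.1219 to 0.1135, KIF1C from -0.238 to 0.0812, KIF21A from -0.0073 to 0.3115, KIF27 from -0.2331 to 0.1807, KIF24 from -0.0213 to 0.1261, KIF13B from -0.015 to 0.1179 and KIF6 from -0.0997 to 0.07. With the block and pair 1 left out KIF16B was -0.0584, KIF20A 0.0624, KIF17 -0.0462, KIF18A 0.1149, KIF6 0.1395 and KIF27 -0.1663. Without pair 2 KIF9 was -0.0498, and without pair 3 KIF24 was -0.0529.

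The planned count tests and scalings on recovered reads were not run. The paired fit has 2 residual degrees of freedom, and low counts limit KIF17 and KIF6.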
